A study of Mus musculus with 16 samples.

Results

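A set of 9 ion channel genes of the transient receptor potential (TRP) family were followed through the sensory ganglia of the mouse: Trpv1, Trpv2, Trpv4, Trpa1, Trpm2, Trpm3, Trpm7, Trpm8 and Trpc1. They were chosen by name as TRP channels of sensory neurons, with earlier results of these data known. All 9 of them were found among the 22609 gene symbols counted in every library. There were 16 RNA-seq libraries of sorted cells, 4 each from the trigeminal ganglion (TG), the nodose and jugular ganglion complex (NG/JG), the dorsal root ganglia (DRG) of spinal levels L3-L5 and those of levels T10-L1. All libraries shared the Pirt-cre/Rosa26-LSL-tdTomato genotype (Pirt/TdTomato) on C57BL/6J, from naive young adult mice labelled male. No treatment was compared, and no library of unlabelled cells served as a control. TdTomato marks cells in which Cre was driven from the Pirt locus, Pirt being a membrane protein of sensory neurons. Whole left and right ganglia were dissociated, and brightly red live cells were sorted in consecutive cycles, which left dimly labelled cells out. The number of animals behind a library is not stated, so the p-values given here measure the spread between these libraries.

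TRP channels are cation channels with a shared transmembrane plan, opened by temperature, chemical ligands, lipids or mechanical and osmotic stress. In somatosensory neurons TRPV1 is the receptor for capsaicin and noxious heat, TRPA1 responds to pungent irritants, TRPM3 takes part in heat responses and TRPM8 is the receptor for menthol and cool temperatures. The ganglia serve different territories, the TG the head and face, the NG/JG the viscera and airways, the L3-L5 DRG the hindlimb, and the T10-L1 DRG the lower trunk and pelvic viscera.

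The sequence before the start of transcription is shown for a heat channel, a cold channel and a channel made by most cell types, because their levels below are unlike. Each run is the 250 bases before the RefSeq start, taken from the RefSeq promoters of GRCm38.p6 and found once in the mm9 sequence (NCBIM37). It is written 5′ to 3′ on the strand of the gene, and capitals mark CG dinucleotides.
Trpv1 (chr11:73047401-73047650, plus strand): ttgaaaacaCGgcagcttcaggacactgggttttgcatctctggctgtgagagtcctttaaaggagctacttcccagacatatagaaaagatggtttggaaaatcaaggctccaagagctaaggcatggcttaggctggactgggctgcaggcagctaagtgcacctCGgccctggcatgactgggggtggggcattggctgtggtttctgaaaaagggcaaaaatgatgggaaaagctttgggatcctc
Trpm8 (chr1:90203060-90203309, plus strand): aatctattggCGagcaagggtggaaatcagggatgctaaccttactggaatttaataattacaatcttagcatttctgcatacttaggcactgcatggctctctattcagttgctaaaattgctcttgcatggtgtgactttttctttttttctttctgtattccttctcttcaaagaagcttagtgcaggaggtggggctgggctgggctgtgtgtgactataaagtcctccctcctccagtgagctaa
Trpm7 (chr2:126701998-126702247, minus strand): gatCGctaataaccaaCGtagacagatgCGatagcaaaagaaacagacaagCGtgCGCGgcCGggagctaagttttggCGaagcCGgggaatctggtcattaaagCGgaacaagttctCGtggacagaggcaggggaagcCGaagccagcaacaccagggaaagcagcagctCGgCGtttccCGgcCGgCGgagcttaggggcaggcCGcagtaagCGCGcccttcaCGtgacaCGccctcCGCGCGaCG
CG, which reads the same on both strands, occurred 2 times before Trpv1, 1 time before Trpm8 and 26 times before Trpm7. Of 32851 promoter entries of this length, 81.2% held at least 2, 92.1% at least 1 and 9.59% at least 26. Of the members, 8 had an entry in the table, and Trpa1 had none. The RefSeq start of Trpm8 lies inside the longer gene model of the GENCODE annotation, which begins at 90174236. These letters were compared with no measurement of binding or methylation.

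Libraries held 4735624 to 13333318 reads on genes, so that the floor of 3 counts used below equals 0.225 to 0.633 CPM, counts scaled to the total of reads on genes in a library. Counts carry no molecular identifiers, and floors cover counting error only. The libraries with reads on the fewest genes were NG/JG library 4 (10132 genes), NG/JG library 2 (11314) and TG library 1 (11527), against up to 18571 elsewhere. The sensory neuron markers Pirt, Avil, Scn9a, Scn10a, Prph, Tubb3, Uchl1, Snap25 and Rbfox3 all had reads in every library, and their summed level ran from 916 to 11819 CPM. Markers of satellite glia summed to between 11584 and 63092 CPM and those of Schwann cells to between 9450 and 64244 CPM, so transcripts of glia were abundant in every sort. In such bulk samples fewer cells of a type and less RNA per cell cannot be told apart. The labels say male, yet Xist drew 1279 to 8362 reads in each library while 9 genes of chromosome Y drew none. Libraries of the same ganglion all differed by more than sampling noise.

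The 9 channels together were lowest in TG and highest in L3-L5 DRG. Their summed level was 101 ± 22.8 CPM (SD, n = 4) in TG, 259 ± 9.66 CPM in T10-L1 DRG, 364 ± 163 CPM in NG/JG and 606 ± 394 CPM in L3-L5 DRG. The TG libraries, at 78.0 to 131 CPM, lay below every library of the other ganglia, whose lowest was 214 CPM in L3-L5 DRG library 4. The 4 libraries of T10-L1 DRG differed by little in the sum, from 249 to 269 CPM, although single channels differed widely among them.

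Levels can be compared between genes only per length, and RPKM (CPM per kilobase of exon) was used for that. Over the 16 libraries the mean level was 25.2 RPKM for Trpv1, 10.5 for Trpv2, 10.3 for Trpa1, 6.46 for Trpm7, 5.94 for Trpm3, 2.32 for Trpv4, 1.10 for Trpm2, 0.744 for Trpc1 and 0.341 for Trpm8. Trpm3 and Trpm7 reached at least 10 CPM in 15 of 16 libraries, Trpv1 in 11, Trpv2 and Trpa1 in 9, Trpm2 in 6 and Trpv4 in 5. Trpm8 and Trpc1 reached it in 0.

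**Figure D1:**
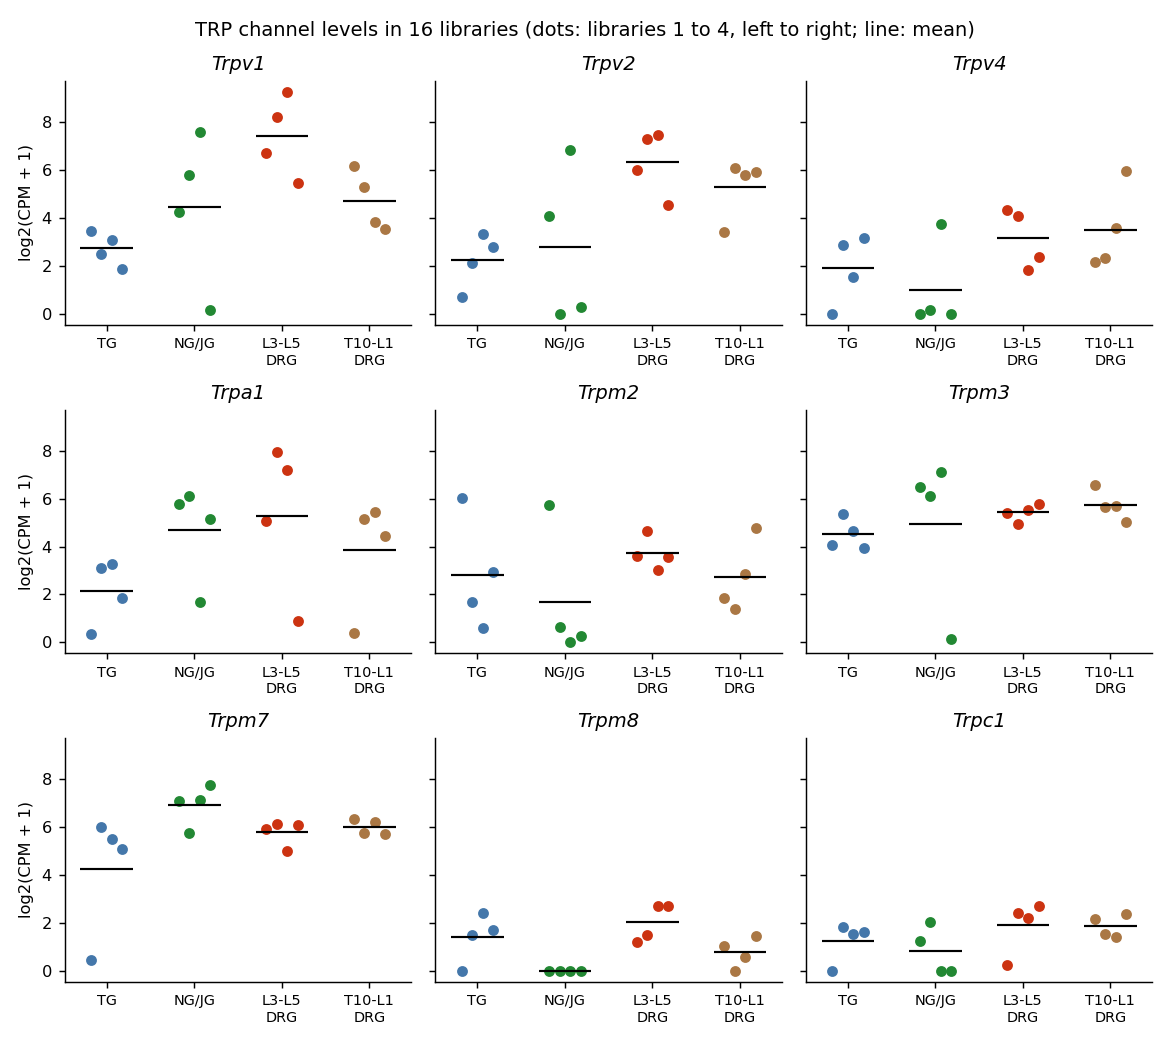
Level of each of the 9 TRP channels in each library, as log2(CPM + 1) on the vertical axis, with the 4 libraries of each ganglion as dots in the order 1 to 4 and their mean as a line. Trpv1 and Trpv2 sat lowest in TG and highest in L3-L5 DRG, Trpm8 had no reads in NG/JG, and Trpm3 and Trpm7 lay between 29.6 and 93.4 CPM in all DRG libraries.

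Trpv1, the capsaicin and heat receptor, lies on chromosome 11 of mm9 from 73047794 to 73074744 on the plus strand, next to Trpv3. In L3-L5 DRG libraries 1 to 4 it had 106, 297, 614 and 43.5 CPM. In T10-L1 DRG it had 70.9, 37.8, 13.3 and 10.7 CPM. In NG/JG it had 17.9, 54.6, 193 and 0.103 CPM, the last being a single read, and in TG 9.90, 4.72, 7.56 and 2.63 CPM. All TG libraries were thus below all DRG libraries, while the 2 kinds of DRG overlapped and NG/JG spanned from below TG into the range of L3-L5 DRG.

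In the fits across all genes (edgeR's quasi-likelihood test, Benjamini-Hochberg adjustment), the log2 fold change of Trpv1 in TG over L3-L5 DRG was -5.11 (SE 0.86, adjusted p = 0.0829), a 34.5-fold lower level. Against T10-L1 DRG it was -2.05 (SE 0.77, adjusted p = 0.150 in edgeR's test), or 4.14-fold lower. Between L3-L5 and T10-L1 DRG it was 3.02 (SE 0.89, adjusted p = 0.790 in edgeR's test). Against NG/JG it was -3.18 in TG (SE 1.48, adjusted p = 0.505 in edgeR's test). The edgeR test of any difference among the 4 ganglia, on all 16 libraries, gave Trpv1 an adjusted p of 0.0820. None of these passed 0.05. DESeq2 did place Trpv1 under it in TG against L3-L5 DRG (adjusted p = 3.1e-07), in TG against T10-L1 DRG (0.0320) and among the 4 ganglia (0.00610).

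The edgeR call for TG turned on TG library 1, as it did for many genes. Without TG library 1, the adjusted p of Trpv1 (quasi-likelihood test of edgeR) was 0.0476 against T10-L1 DRG and 0.0110 against L3-L5 DRG, with log2 fold changes of -2.28 and -5.32. In the same fits the number of all genes called rose from 758 to 3583 and from 0 to 2038. Among the 4 ganglia, leaving out TG library 1 did not bring Trpv1 under 0.05 (adjusted p = 0.0911 in edgeR's test), although all genes called rose from 429 to 1035. There the adjusted p in edgeR's test was 0.0417 without NG/JG library 3, the highest for Trpv1 in that ganglion, and 0.0172 without NG/JG library 4, the lowest.

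Trpa1, the irritant receptor, is on chromosome 1 from 14862729 to 14908943 on the minus strand. It had 32.7, 249, 144 and 0.845 CPM in L3-L5 DRG and 0.306, 34.3, 42.6 and 20.8 CPM in T10-L1 DRG. In NG/JG it had 54.5, 69.1, 2.21 and 34.5 CPM, and in TG 0.254, 7.48, 8.76 and 2.63 CPM. Every ganglion but NG/JG held a library with 4 counts or fewer, namely TG 1, L3-L5 DRG 4 and T10-L1 DRG 1, and the ganglia overlapped. The log2 fold change of TG over L3-L5 DRG was -4.08 (SE 1.40, adjusted p = 0.155 by the quasi-likelihood test of edgeR, 0.0152 in DESeq2). Without TG library 1, which had 2 counts, it was -3.66 (adjusted p = 0.113 by the quasi-likelihood test of edgeR). In NG/JG library 4, where Trpv1 had 1 read, Trpa1 had 334 reads.

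Trpm3, a channel opened by heat and by the steroid pregnenolone sulfate, spans 850.8 kb of chromosome 19 from 22213609 to 23064374 on the plus strand. It had 41.7, 29.6, 45.7 and 54.5 CPM in L3-L5 DRG, 93.4, 49.5, 50.1 and 31.3 CPM in T10-L1 DRG and 15.6, 40.1, 24.1 and 14.4 CPM in TG. In NG/JG it had 87.5, 68.1 and 136 CPM in libraries 1 to 3 and 0.103 CPM, a single read, in library 4. The ganglia overlapped, and the largest fitted log2 fold change of Trpm3 was -1.35 for TG over NG/JG (SE 1.23, adjusted p = 0.834 by the quasi-likelihood test of edgeR). Without NG/JG library 4, that difference was -1.77 (SE 0.65, adjusted p = 0.277 in edgeR's test).

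Trpm8, the cold and menthol receptor, lies on chromosome 1 from 90174236 to 90285868 on the plus strand, and 8.20% of its exon length overlaps a gene model on the opposite strand (4930453O03Rik). It was the least abundant member per length. Trpm8 had 13, 18, 68 and 26 counts in L3-L5 DRG (1.26, 1.79, 5.60 and 5.49 CPM), 0, 9, 25 and 13 in TG, 7, 0, 6 and 23 in T10-L1 DRG, and 0 in all 4 libraries of NG/JG. The mean of L3-L5 DRG was at least 9.53-fold higher than NG/JG, against the mean CPM of 3 counts per NG/JG library, and that of TG at least 5.63-fold higher. The edgeR quasi-likelihood test gave an adjusted p of 0.168 for NG/JG against L3-L5 DRG and of 0.170 among the 4 ganglia, and DESeq2 gave 5.8e-04 and 0.0174. Without the 3 libraries with fewest genes the edgeR adjusted p was 0.412 and 0.151. Too few counts kept Trpm8 out of the edgeR fits of NG/JG against T10-L1 DRG and of TG against NG/JG.

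Trpv2, opened by strong heat, stretch and cannabinoids and known from medium and large sensory neurons, is on chromosome 11 from 62387988 to 62414017 on the plus strand. It had 63.3, 155, 176 and 22.6 CPM in L3-L5 DRG and 9.63, 66.5, 54.7 and 60.1 CPM in T10-L1 DRG. In TG it had 0.635, 3.34, 9.11 and 5.97 CPM. NG/JG held both extremes, with 16.1 and 112 CPM in libraries 1 and 3, no read in library 2 and 2 reads in library 4. Every TG library was below every DRG library, as for Trpv1. The log2 fold change of TG was -4.06 over L3-L5 DRG (SE 0.92, 16.7-fold lower, adjusted p = 0.0829 by the quasi-likelihood test of edgeR) and -2.93 over T10-L1 DRG (SE 0.89, 7.61-fold lower, adjusted p = 0.0806 in the same test). DESeq2 gave adjusted p = 2.4e-04 and 0.00486. Without TG library 1 the edgeR adjusted p was 0.0165 and 0.0198.

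Trpv4, an osmotic and warmth sensor that is also made by many non-neuronal cells, is on chromosome 5 from 115072161 to 115108430 on the minus strand. It had 3.52, 4.00, 10.9 and 62.2 CPM in T10-L1 DRG and 19.4, 15.9, 2.55 and 4.22 CPM in L3-L5 DRG. In TG it had 0, 6.30, 1.89 and 8.08 CPM and in NG/JG 0, 0.114, 12.4 and 0 CPM. The highest mean, that of T10-L1 DRG, rested on library 4, and without it the difference between L3-L5 and T10-L1 DRG on the log2 scale went from -1.06 to 0.73. In that library the 7 macrophage markers, all of them with reads, summed to 13719 CPM, against 683 to 930 CPM in the other T10-L1 DRG libraries. Fibroblast markers (8824 CPM) and neutrophil markers (1020 CPM) were also at their highest of the 16 libraries there. In NG/JG library 3, with 12.4 CPM of Trpv4, the macrophage markers summed to 19.6 CPM, the lowest of the 16. NG/JG library 1 had 3210 CPM of them and no read of Trpv4. The part of any of these cell types in the level of Trpv4 was not tested.

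Trpm2, opened by ADP-ribose and oxidative stress and abundant in macrophages and neutrophils as well as in some neurons, is on chromosome 10 from 77370467 to 77433308 on the minus strand. It had 64.2, 2.16, 0.515 and 6.67 CPM in TG and 52.2, 0.569, 0 and 0.207 CPM in NG/JG, so that library 1 held nearly all its reads in both. In L3-L5 DRG it had 11.2, 24.2, 7.09 and 10.8 CPM and in T10-L1 DRG 2.60, 1.62, 6.17 and 26.3 CPM. The macrophage markers summed to 3767 CPM in TG library 1 and to 3210 CPM in NG/JG library 1, against 2190 to 8006 CPM in the other TG libraries and 19.6 to 190 CPM in the other NG/JG libraries; they were also highest in T10-L1 DRG library 4. The neutrophil markers summed to 0 CPM in TG library 1 and to 1.67 CPM in NG/JG library 1, and were highest in T10-L1 DRG library 4 (1020 CPM). The part of either cell type in the level of Trpm2 was not tested. Of the 6 fitted differences of Trpm2, all had an adjusted p of at least 0.681 (quasi-likelihood test of edgeR), and the log2 fold change of TG over T10-L1 DRG went from 1.14 to -1.21 without TG library 1.

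Trpm7, a channel with a kinase domain that carries magnesium and zinc and is made by most cell types, is on chromosome 2 from 126617301 to 126701966 on the minus strand. It had 137, 52.9, 138 and 214 CPM in NG/JG, 80.7, 53.1, 74.0 and 52.0 CPM in T10-L1 DRG and 58.8, 70.0, 30.7 and 66.9 CPM in L3-L5 DRG. In TG it had 63.0, 44.7 and 33.2 CPM in libraries 2 to 4 and 3 counts (0.381 CPM) in library 1. NG/JG had the highest mean, and 3 of its libraries were above all 12 of the other ganglia. The log2 fold change of NG/JG was 1.43 over L3-L5 DRG (SE 0.55, adjusted p = 0.630 by the quasi-likelihood test of edgeR) and 1.18 over T10-L1 DRG (SE 0.49, adjusted p = 0.758 in the same test), neither past the threshold. Without NG/JG library 4, the highest, these were 1.04 and 0.79.

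Trpc1, a subunit of receptor-operated and store-operated channels, is on chromosome 9 from 95607046 to 95650777 on the minus strand. It had 0.195, 4.37, 3.54 and 5.49 CPM in L3-L5 DRG, 3.52, 1.90, 1.64 and 4.20 CPM in T10-L1 DRG, 0, 2.56, 1.89 and 2.11 CPM in TG and 1.39, 3.07, 0 and 0 CPM in NG/JG. The ganglia overlapped throughout, and its largest count was 56, so that only large differences were detectable at this depth.

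The mean level ran from L3-L5 DRG down to TG for Trpv1, Trpv2 and Trpa1, and from NG/JG down to TG for Trpm3 and Trpm7. Of the 27 steps between neighbours in the 9 orders, 1 did not overlap, that from T10-L1 DRG down to TG for Trpv1. The others overlapped in CPM.

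Set against all genes, at most 2 members passed any rule in the pairs without TG and in TG against NG/JG. For L3-L5 against T10-L1 DRG, edgeR's quasi-likelihood test called 0 of 9 members at an adjusted p under 0.05, as it did 0% of the 13550 genes tested; 1 member (Trpv1) had an unadjusted p under 0.05 beside 6.07% of genes, DESeq2 called 0 members beside 0.487% of genes, and 0 members were without overlap in CPM beside 3.7% of genes. For NG/JG against T10-L1 DRG, edgeR called 0 of the 8 members tested (0.0322% of genes), 1 member (Trpm7) had an unadjusted p under 0.05 (5.91% of genes), DESeq2 called 0 (5.44% of genes) and 0 were without overlap (8.04% of genes). For NG/JG against L3-L5 DRG, edgeR called 0 of 9 (0% of genes), 2 members (Trpm7 and Trpm8) had an unadjusted p under 0.05 (6.04% of genes), DESeq2 called Trpm8 (5.28% of genes), and Trpm8 alone was without overlap (7.34% of genes). For TG against NG/JG, edgeR called 0 of the 8 tested (0.051% of genes), 0 had an unadjusted p under 0.05 (10% of genes), DESeq2 called 0 (6.35% of genes) and 0 were without overlap (9.63% of genes).

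More members passed in TG against the DRG, where more of all genes passed as well. For TG against T10-L1 DRG, edgeR's quasi-likelihood test called 0 of 9 members beside 5.87% of genes, 2 members (Trpv1 and Trpv2) had an unadjusted p under 0.05 beside 21.6% of genes, DESeq2 called the same 2 beside 15.4% of genes, and these 2 were without overlap beside 18.5% of genes. For TG against L3-L5 DRG, edgeR called 0 of 9 beside 0% of genes, 3 members (Trpv1, Trpv2 and Trpa1) had an unadjusted p under 0.05 beside 18.2% of genes, DESeq2 called these 3 beside 11.3% of genes, and Trpv1 and Trpv2 were without overlap beside 15.9% of genes. Among the 4 ganglia, edgeR called 0 of 9 beside 3.01% of genes, 2 members (Trpv1 and Trpm8) had an unadjusted p under 0.05 beside 17.5% of genes, and DESeq2 called these 2 beside 12.7% of genes. The members called by DESeq2 in these pairs were lower in TG. Satellite glia markers, all 5 of them with reads in every library, summed to between 22191 and 63092 CPM in TG and to between 11584 and 27718 CPM in the DRG libraries, and their part in the lower levels of TG was not tested. The comparisons share libraries and are not independent of each other.

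**Figure D2:**
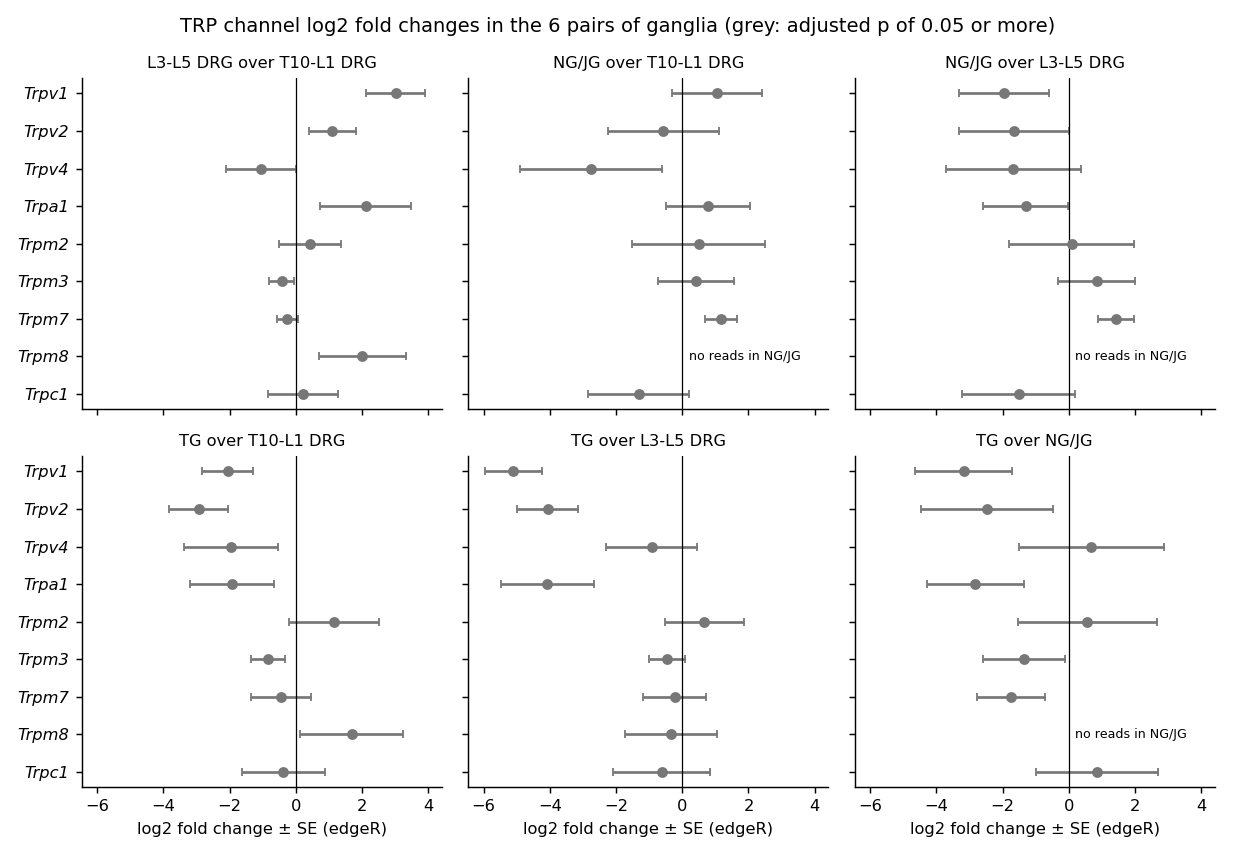
Log2 fold change of each TRP channel in the 6 pairs of ganglia, with the first-named ganglion over the second on the horizontal axis. Bars are 1 standard error, derived from the F value of edgeR's test (8 libraries a pair). In TG over L3-L5 DRG, Trpv1, Trpa1 and Trpv2 lay at -5.11, -4.08 and -4.06, no point passed an adjusted p of 0.05, and Trpm8 is left out where NG/JG had no read.

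The leading channel differed between libraries. By share of the summed RPKM, Trpv1 was first in 6 libraries, among them all 4 of L3-L5 DRG, where it made up 34.3% to 66.2%. Trpm7 was first in 4 libraries, TG 2 to 4 with 26.2% to 32.4% and NG/JG 4 with 69.8%. Trpa1 was first in NG/JG 1 and 2 with 26.3% and 35.9%, and Trpv2 in T10-L1 DRG 2 and 3 with 32.5% and 28.9%. Trpm2 was first in TG 1 with 51.9%, and Trpv4 in T10-L1 DRG 4 with 31.3%. By share of summed CPM, which needs no gene length, Trpv1 was first in 4 libraries and Trpm7 in 7. Trpm7 then led L3-L5 DRG library 4 with 31.2%, so that by CPM no ganglion had the same leading channel in all its libraries. Ranks by CPM also carry gene length, as the exons of Trpm7 cover 11315 bases and those of Trpv1 3681.

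**Figure D3:**
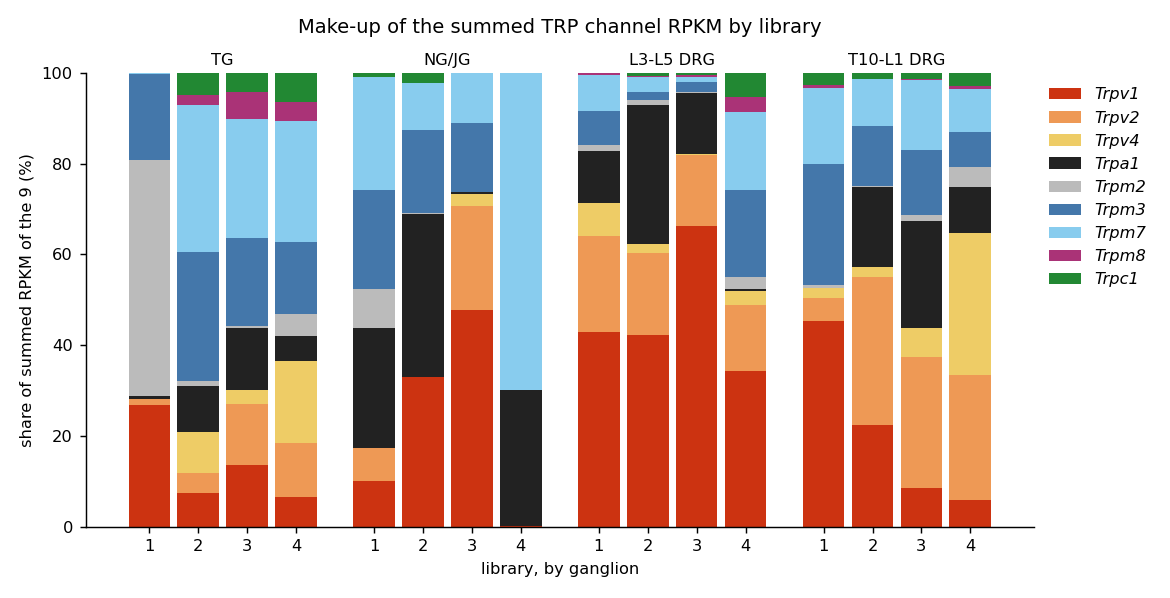
Share of each TRP channel in the summed RPKM of the 9, in percent, for each of the 16 libraries by ganglion. Trpv1 led in all libraries of L3-L5 DRG with 34.3% to 66.2%, while each of the other ganglia had at least 2 different leading channels among its 4 libraries.

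Because libraries differed in neuronal transcripts, the members were also set against the summed CPM of the 9 sensory neuron markers, a scaling chosen after the data had been seen. The 2 libraries with the highest marker sum, L3-L5 DRG 2 and 3 (10481 and 11819 CPM), also had the highest TRP sums (847 and 1030 CPM), and L3-L5 DRG 4 had the lowest of its ganglion in both (1235 and 214 CPM). Per 1000 CPM of the markers, Trpv2 was nearly level among the L3-L5 DRG libraries, at 16.9, 14.8, 14.9 and 18.3 CPM, where its CPM had spread 7.81-fold. Not every member came closer on this scale, as Trpm7 ran from 2.60 to 54.2 and Trpm3 from 2.82 to 44.1 in the same libraries, where their CPM had spread 2.28-fold and 1.84-fold. In T10-L1 DRG Trpv2 was 4.64, 18.9, 13.7 and 27.5 CPM on this scale, and in TG 0.693, 1.71, 2.69 and 2.29 CPM. The mean of Trpv2 on this scale was then 1.85 ± 0.867 (SD, n = 4) in TG, 16.2 ± 9.57 in T10-L1 DRG and 16.2 ± 1.67 in L3-L5 DRG, so that TG remained below both DRG groups without overlap. Trpv1 on this scale was 28.1, 28.3, 51.9 and 35.2 CPM in L3-L5 DRG, 34.2, 10.7, 3.33 and 4.87 CPM in T10-L1 DRG and 10.8, 2.42, 2.23 and 1.01 CPM in TG. TG stayed below L3-L5 DRG without overlap for Trpv1, but overlapped T10-L1 DRG, since TG library 1 had the lowest marker sum (916 CPM) and the highest value for Trpv1 in that ganglion. The sum of the 9 members per 1000 CPM of markers was 56.7 ± 33.4 in TG, 96.3 ± 34.0 in T10-L1 DRG, 108 ± 44.1 in L3-L5 DRG and 129 ± 89.3 in NG/JG. On this scale all 4 ganglia overlapped in the sum, with TG reaching 99.3 and NG/JG starting at 54.9.

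**Figure D4:**
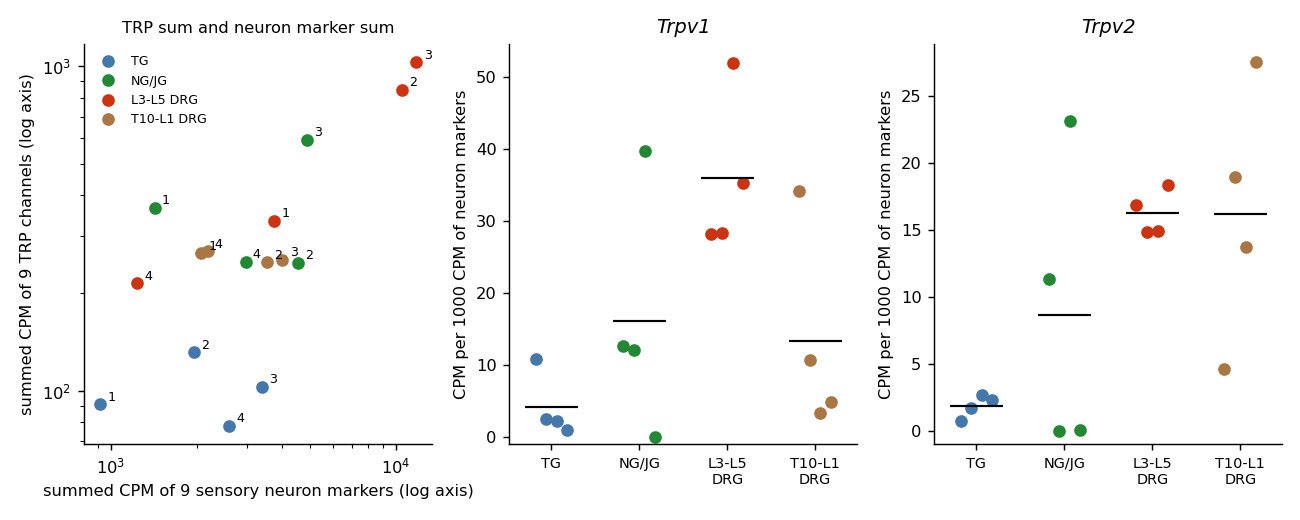
Left, summed CPM of the 9 TRP channels against the summed CPM of the 9 sensory neuron markers for 16 libraries, both axes logarithmic, numbered by library and coloured by ganglion. Middle and right, Trpv1 and Trpv2 per 1000 CPM of the markers, with the mean as a line; Trpv2 in L3-L5 DRG lay between 14.8 and 18.3 and in TG between 0.693 and 2.69.

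Immediate-early and dissociation genes were highest in NG/JG library 4 (62510 CPM), where Trpv1, Trpm3, Trpv2 and Trpm2 had 1 or 2 reads and Trpm7 had 2072. They were lowest in L3-L5 DRG library 3 (3630 CPM), where Trpv1 was highest. Yet NG/JG library 2, at 47254 CPM, had 54.6 CPM of Trpv1 and 68.1 CPM of Trpm3. TG library 4, at 10772 CPM, had 2.63 CPM of Trpv1. NG/JG library 4 also had reads on the fewest genes, and L3-L5 DRG library 3 the highest neuron marker sum. A link between these genes and the channels was not tested.

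Some members followed each other over the 16 libraries. The highest correlations between members, on log2(CPM + 1), were between Trpv2 and Trpv4 (Pearson r = 0.68), Trpv1 and Trpv2 (r = 0.68), Trpv1 and Trpm3 (r = 0.66), and Trpm8 and Trpc1 (r = 0.60), of 36 pairs, and the lowest was between Trpm2 and Trpm7 (r = -0.47). The libraries share ganglion, depth and neuronal content, so these values are descriptions. Among 14236 genes, those most like Trpv1 were 5730403B10Rik (r = 0.92, Spearman's rho = 0.94), Necap1 (r = 0.91, rho = 0.90) and Ppme1 (r = 0.91, rho = 0.90). Most like Trpv2 were 9330182L06Rik (r = 0.97, rho = 0.97), D930015E06Rik (r = 0.96, rho = 0.94) and Ypel1 (r = 0.96, rho = 0.95). Most like Trpa1 was Scg3, a granule protein of neuroendocrine cells (r = 0.89, rho = 0.82), then Fam188a (r = 0.88, rho = 0.85) and Stoml1 (r = 0.87, rho = 0.89). Trpv4 was closest to Ano8 (r = 0.93, rho = 0.94), Gpr160 (r = 0.91, rho = 0.90) and Aldh16a1 (r = 0.89, rho = 0.82). Closest to Trpm2 were Pcdhga4 (r = 0.91, rho = 0.88), 9130019O22Rik (r = 0.90, rho = 0.88) and Zfp287 (r = 0.87, rho = 0.86). Trpm3 was closest to Dopey2 (r = 0.95, rho = 0.80), Helz (r = 0.94, rho = 0.78) and Mfap3l (r = 0.94, rho = 0.86). Closest to Trpm7 were Rnf215 (r = 0.97, rho = 0.86), Tshz3 (r = 0.94, rho = 0.79) and 1810074P20Rik (r = 0.93). For Trpm7 the rank correlation with 1810074P20Rik was 0.45, well under its r. The sparse Trpm8 was closest to Trp53rk (r = 0.92, rho = 0.91), Pou4f3 (r = 0.88, rho = 0.90) and Zfp341 (r = 0.88, rho = 0.91). These had mean levels of 3.55, 2.98 and 2.69 CPM. Closest to Trpc1 were Rg9mtd3 (r = 0.85, rho = 0.68), Tbc1d16 (r = 0.83, rho = 0.72) and Atmin (r = 0.83, rho = 0.81).

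The remaining 19 genes of the mouse TRP family were read in the same libraries. None was called by edgeR's quasi-likelihood test at an adjusted p under 0.05 in any pair or among the 4 ganglia, where between 6 and 13 of them had enough counts to be tested and 0% to 5.87% of all genes were called. Between 0 and 3 of them had an unadjusted p under 0.05 in a comparison, beside 5.91% to 21.6% of all genes. DESeq2 called between 0 and 2, beside 0.487% to 15.4% of all genes. High mean levels per length were those of Mcoln1, a lysosomal channel (24.2 RPKM), Trpc6 (6.09), Trpm4, a calcium-activated channel (2.82), and Trpc4 (2.47). Mcoln1 was thus close to Trpv1 in mean level, at 25.2 RPKM, and had reads in all 16 libraries, with 38.7 to 60.2 CPM in TG and 99.5 to 139 CPM in L3-L5 DRG. Trpc6 had 4.13 CPM in 1 library of TG and no read in the other 3, against 10.3 to 73.9 CPM in L3-L5 DRG and 11.6 to 25.9 CPM in T10-L1 DRG. Both lay without overlap below each kind of DRG. They alone did so, making 2 of 8 tested in TG against T10-L1 DRG and 2 of 9 in TG against L3-L5 DRG. Of all genes, 18.5% and 15.9% were without overlap in these pairs. DESeq2 called both in TG against L3-L5 DRG, beside 11.3% of all genes.

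Trpm4 had 0.974, 0.455, 0.553 and 2.48 CPM in NG/JG and 19.6, 49.3, 48.4 and 14.1 CPM in L3-L5 DRG. On the log2 scale NG/JG minus L3-L5 DRG was -4.67 (SE 1.29, adjusted p = 0.232 by the quasi-likelihood test of edgeR, 1.4e-05 in DESeq2). Against T10-L1 DRG, DESeq2 also called Trpm4 lower in NG/JG (adjusted p = 0.0099, with 0.677 in edgeR's test). Trpv6, a calcium-selective channel, had no read in NG/JG, like Trpm8, and its mean in L3-L5 DRG was at least 9.82-fold higher (adjusted p = 0.168 in edgeR's test, 5.7e-04 in DESeq2). Trpc4 had 50.1 and 55.1 CPM in NG/JG libraries 2 and 3 and at most 7.64 CPM in the other 14. DESeq2 called Trpc4 in TG against NG/JG. Of all genes, DESeq2 called 6.35% in that pair, 5.28% in NG/JG against L3-L5 DRG and 5.44% in NG/JG against T10-L1 DRG. Mcoln3 had 3 counts or fewer in every library.

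Of 18 genes that bind or regulate TRP channels, edgeR's quasi-likelihood test called 1, which made 1 of 14 tested in TG against T10-L1 DRG beside 5.87% of all genes and 1 of 16 tested among the 4 ganglia beside 3.01%. Plcb3, the phospholipase C through which Gq-coupled receptors sensitize TRPV1, had 78.1, 48.2, 50.9 and 43.9 CPM in TG and 91.7, 301, 409 and 243 CPM in T10-L1 DRG. It had 121, 280, 187 and 134 CPM in NG/JG and 347, 762, 649 and 197 CPM in L3-L5 DRG, so every TG library was below every other library. Its log2 fold change of TG over T10-L1 DRG was -1.90 (SE 0.43, 3.74-fold lower, adjusted p = 0.0368 by the quasi-likelihood test of edgeR), and it was also called among the 4 ganglia (adjusted p = 0.0209 in edgeR's test). The call against T10-L1 DRG held without TG library 1 (adjusted p = 0.0083 in edgeR's test) and was lost without any 1 of the other 7 libraries, with adjusted p up to 0.121. It was also lost with the replicate number as a block (adjusted p = 0.129 in edgeR's test). The 4-ganglion call was lost without TG library 2, 3 or 4 or L3-L5 DRG library 2, with adjusted p up to 0.114 in edgeR's test. In TG over L3-L5 DRG the difference was -2.82 (SE 0.47, adjusted p = 0.0829 in edgeR's test), the same adjusted p as Trpv1 and Trpv2 had there. DESeq2 called Plcb3 in all 3 pairs with TG and among the 4 ganglia, and 2 further regulators, Ano1 in NG/JG against T10-L1 DRG and Gnb1 in TG against T10-L1 DRG. Of all genes it called 15.4% in TG against T10-L1 DRG, 11.3% in TG against L3-L5 DRG and 6.35% in TG against NG/JG. Among the 4 ganglia the share was 12.7%, and in NG/JG against T10-L1 DRG it was 5.44%. Ano1, a calcium-activated chloride channel, had 5 reads in NG/JG library 1 and none in the other 3, against 5.75 to 35.2 CPM in T10-L1 DRG (DESeq2 adjusted p = 2.1e-04, with 0.319 in edgeR's quasi-likelihood test). Gnb1, a G protein subunit, had a mean of 1358 CPM in TG and 1043 CPM in T10-L1 DRG (DESeq2 adjusted p = 0.0467, with 0.157 in edgeR's test). Calm3 and Calm2, which encode calmodulin, were the next 2 by the 4-ganglion test, with adjusted p = 0.140 and 0.184 (quasi-likelihood test of edgeR), and were highest on average in TG, at 252 and 1250 CPM. Pirt, the TRPV1 partner whose locus drives Cre, had 16.8 to 120 CPM in TG, 20.2 to 303 CPM in NG/JG, 47.7 to 308 CPM in L3-L5 DRG and 45.1 to 205 CPM in T10-L1 DRG, and its 4-ganglion adjusted p was 0.938 (quasi-likelihood test of edgeR). Its level overlapped between all ganglia.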

How the data were processed

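RNA-seq libraries of FACS-sorted, brightly TdTomato-positive cells from 4 ganglia were analysed, 4 libraries each. The authors made oligo(dT)-primed SMART-seq2 libraries read as single reads, and per their processing notes used bcl2fastq, TopHat2 on mm9 and HTSeq; versions and strand setting are not given in the sources used here. The deposited values are raw counts per gene symbol, with 4735624 to 13333318 reads on genes per library; 29.6% to 66.6% of the reads listed fell on no gene and stayed out of library sizes and tests.

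CPM was computed from the counts on genes, and RPKM from the union of exons in GENCODE M1 (NCBIM37). Each pair of ganglia was tested on its own 8 libraries, and the 4 ganglia together on all 16, with edgeR 4.0.16 (filterByExpr, TMM, quasi-likelihood F test) and Benjamini-Hochberg adjustment over all genes tested; an adjusted p under 0.05 was called. The tests were also run on counts simulated for TG against T10-L1 DRG only, with no outlying library among them. That run does not cover the effect of single libraries seen in these data. Alternatives were DESeq2 1.42.0, RLE factors, no filter, the replicate number as a block, all 16 libraries in one fit, CPM in place of RPKM for shares, and each library left out in turn. The joint omission of 3 libraries and the scaling to neuron markers were added after seeing the data. Other software was R 4.3.3, Python 3.11.15, numpy 2.4.6, scipy 1.17.1 and pandas 2.3.3.

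The members and gene lists were chosen with earlier results of these data known. Named were all members, the other TRP genes that were called, that had the 5 highest mean RPKM or that had at most 3 counts in every library, Pirt and those regulators that were called or had the 3 lowest 4-ganglion p, and for each member the 3 genes with the highest Pearson r. Values of Trpv6, Trpc4, Ano1 and Gnb1 beyond this rule were chosen after they were seen, and some results that the rule would name are not reported here. Unless said otherwise, n = 4 and errors are SD. The SE of an edgeR log2 fold change was derived as its absolute value divided by the square root of its F value. For genes with few counts that SE is a rough guide only.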

Additional observations from a re-analysis of the deposited data

Results flagged for a closer look

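Within a ganglion, 5 of the 35 sets of 4 libraries with any reads held a library far from the others, the gap to its nearest neighbour taking up more of the whole range of CPM than Dixon's 95% critical value allows. Chance flags about 1 in 20 groups, and CPM is skewed upwards. Trpv2 in NG/JG library 3 had 112 CPM, against 0 to 16.1 CPM in the other 3, and Trpv4 in the same library had 12.4 CPM, against 0 to 0.114 CPM. That library also had the highest level of Trpv1 and Trpm3 in NG/JG. Trpv4 in T10-L1 DRG library 4 had 62.2 CPM, against 3.52 to 10.9 CPM in the others of that ganglion. This library had the highest macrophage, fibroblast and neutrophil marker sums of the 16, while NG/JG library 3 had the lowest macrophage marker sum (19.6 CPM). Trpm2 had 64.2 CPM in TG library 1, against 0.515 to 6.67 CPM in the other 3, and 52.2 CPM in NG/JG library 1, against 0 to 0.569 CPM. In TG library 1 Trpm7, Trpa1, Trpv2, Trpv4, Trpm8 and Trpc1 were all at their lowest for that ganglion, with 0 to 5 counts each.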

How the results depend on the processing

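Of 52 fitted log2 fold changes of the members, 36 kept their direction under every alternative, and 14 turned over when some single library was left out. For L3-L5 over T10-L1 DRG, leaving out 1 library gave -1.49 to 0.73 for Trpv4, -0.048 to 1.90 for Trpm2 and -0.081 to 0.62 for Trpc1. For NG/JG over T10-L1 DRG it gave -0.39 to 1.73 for Trpv1, -5.06 to 2.01 for Trpm2 and -0.062 to 0.85 for Trpm3, and for NG/JG over L3-L5 DRG -5.46 to 0.54 for Trpm2. For TG over T10-L1 DRG it gave -1.21 to 2.58 for Trpm2 and -0.71 to 0.042 for Trpc1. For TG over L3-L5 DRG it gave -1.67 to 1.14 for Trpm2, -0.69 to 0.19 for Trpm7 and -0.95 to 0.094 for Trpm8. For TG over NG/JG it gave -2.98 to 0.043 for Trpv2 and -1.84 to 6.09 for Trpm2. Trpm2 turned over in each of its 6 pairs.

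With the 3 libraries with fewest genes left out together, Trpv2 turned to 0.44 (from -0.57) in NG/JG over T10-L1 DRG, Trpm2 to -1.21 and Trpc1 to 0.042 in TG over T10-L1 DRG, Trpm2 to -1.67, Trpm7 to 0.19 and Trpm8 to 0.094 in TG over L3-L5 DRG, and Trpm2 to -2.83 in TG over NG/JG. Per 1000 CPM of neuron markers, Trpm2 turned to -0.066 in L3-L5 over T10-L1 DRG and Trpa1 to 0.53 (from -1.30) in NG/JG over L3-L5 DRG. The causes were not tested.

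The number of members called was 0 in each comparison by edgeR. DESeq2 called 1 in NG/JG against L3-L5 DRG, 2 in TG against T10-L1 DRG, 3 in TG against L3-L5 DRG and 2 among the 4 ganglia. Without the filter edgeR called 2 in TG against L3-L5 DRG and 1 among the 4 ganglia. Without the 3 libraries it called 2, 2 and 1 in TG against T10-L1 DRG, TG against L3-L5 DRG and the 4 ganglia. Leaving out 1 library gave 0 to 2 in TG against either DRG, the 2 without TG library 1, 0 to 1 among the 4 ganglia, the 1 without NG/JG library 3 or 4, and 0 in the other pairs.

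The number of all genes called moved widely. In L3-L5 against T10-L1 DRG it was 0 in edgeR and 78 in DESeq2. In NG/JG against T10-L1 DRG it was 4, with DESeq2 886, without the filter 9, in the fit of all 16 libraries 54, without the 3 libraries 7, and 1 to 5 with 1 library left out. In NG/JG against L3-L5 DRG it was 0, and then 806, 2, 83 and 0 to 2 (not moved without the 3 libraries). In TG against T10-L1 DRG it was 758, with DESeq2 2199, without the filter 427, in the fit of all 16 libraries 238, without the 3 libraries 3583, and 0 to 3583 with 1 library left out. In TG against L3-L5 DRG it was 0, and in the same order 1612, 39, 206, 2038 and 0 to 2038. In TG against NG/JG it was 6, and in the same order 854, 56, 484, 1038 and 1 to 325. Among the 4 ganglia it was 429, with DESeq2 1868, without the filter 241, without the 3 libraries 2143, and 33 to 1035 with 1 library left out.

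The labels do not say what the replicate number marks. Deviations of libraries with the same number from the ganglion means correlated between -0.113 and 0.221 over 24 pairs of libraries, 7 of them over 0.1, and 7 of 16 libraries correlated best with their own number. With the replicate block edgeR called no member, and of all genes 0 in NG/JG against T10-L1 DRG, 0 in TG against T10-L1 DRG, 1 in TG against NG/JG and 184 among the 4 ganglia. The block turned Trpc1 to -0.036 in L3-L5 over T10-L1 DRG, Trpv1 to -0.66, Trpm2 to -3.47 and Trpm3 to -0.36 in NG/JG over T10-L1 DRG, Trpm2 to -4.77 in NG/JG over L3-L5 DRG, to -0.049 in TG over T10-L1 DRG and to -1.13 in TG over L3-L5 DRG, and Trpv2 to 0.64 in TG over NG/JG. The call of Plcb3 in TG against T10-L1 DRG was lost under it.

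As shares of summed CPM, Trpv1 no longer led L3-L5 DRG library 4, and 4 of 36 mean shares moved by more than 1 SD: Trpm2 in L3-L5 DRG to 2.98% (from 1.29%), Trpm7 in L3-L5 DRG to 15.0% (from 7.32%) and in T10-L1 DRG to 25.0% (from 13.0%), and Trpc1 in T10-L1 DRG to 1.07% (from 2.07%). With 4 libraries a ganglion and a few counts of Trpm8 and Trpc1 in each, only large differences were detectable for these 2 channels.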
